A study of Mus musculus with 6 samples.

Results

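The genes described here are 9 that handle bile acids in the ileum or answer to the bile acid receptor Fxr, taken by symbol from a table of 47643 genes. They are Fgf15, Nr0b2, Nr1h4, Slc10a2, Fabp6, Slc51a, Slc51b, Abcc2 and Abcc3. The symbols were matched by Ensembl identifier to GENCODE M21, and all 9 passed the filter on low counts that left 12720 genes for testing. Polyadenylated RNA labelled as intestine came from male C57BL/6 mice aged 7 to 8 weeks. All had tamoxifen injections and 2 weeks on a diet with 60% fat. The 3 control libraries carried the genotype Mycfl/fl and the 3 Myc-deleted libraries the genotype MycΔIE, ERT2, a tamoxifen-inducible loss of the transcription factor Myc in the intestinal epithelium. The labels do not name the driver of the recombinase or say whether the controls carry it, so the absence of Myc and the presence of a recombinase cannot be told apart. They name no intestinal segment either, and the extraction protocol speaks of liver.

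Bile acids are made in the liver, released into the gut to dissolve fat and recovered in the last part of the small intestine. Ileal enterocytes take them up, carry them through the cytosol and export them to the portal blood. Inside these cells bile acids bind Fxr, a nuclear receptor that switches on export genes and the hormone Fgf15, which travels to the liver and represses bile acid synthesis.

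Of the 9 genes, 3 rose in the Myc-deleted libraries and 0 fell. Those that rose were Nr0b2 (6.03-fold), Fgf15 (3.86-fold) and Abcc2 (1.52-fold). The share of all tested genes that rose was 4.22%, the share that fell was 3.73%, and 7.95% passed in either direction (edgeR quasi-likelihood test, Benjamini-Hochberg adjusted p under 0.05). The uptake carrier Slc10a2, the cytosolic carrier Fabp6, both subunits of the export carrier (Slc51a and Slc51b), the exporter Abcc3 and the receptor Nr1h4 did not pass. Of these 6, Nr1h4 and Slc51b had an unadjusted p under 0.05, both in the downward direction. At that threshold 1329 of all 12720 tested genes were lower and 1492 higher. DESeq2 and limma voom also put 3 genes higher and 0 lower. The median log2 fold change of the 9 was -0.03, against -0.00212 over all tested genes, and it was positive (0.03 to 0.07) when control library 1, control library 2 or Myc-deleted library 1 was left out. Bulk RNA does not separate fewer cells of a type from less RNA per cell.

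**Figure D1:**
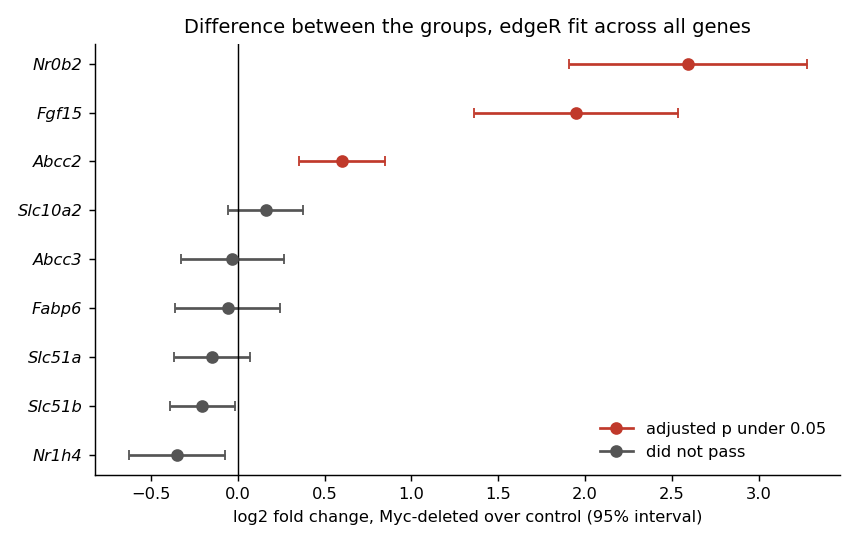
Log2 fold change of the 9 genes, Myc-deleted over control (x axis), with 95% intervals of the edgeR fit, 3 libraries per group. Nr0b2, Fgf15 and Abcc2 (red) lie above 0 with their whole interval, and the other genes (grey) did not pass after adjustment.

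Promoter windows from RefSeq (GRCm38.p6, 250 bases before to 50 after the start) were found for 7 of the 9 genes. Fgf15 and Abcc3 had none in the table. The windows of 3 genes are printed 5′ to 3′ on the strand of the gene, because Nr0b2 and Fabp6 are both textbook targets of Fxr, of which 1 rose and 1 did not pass, and Slc51a stood apart for a motif. They lie at chr4:133553126-133553425 (plus strand, Nr0b2), chr11:43601513-43601812 (minus strand, Fabp6) and chr16:32487830-32488129 (minus strand, Slc51a). Capitals mark matches to the motifs searched.
Nr0b2: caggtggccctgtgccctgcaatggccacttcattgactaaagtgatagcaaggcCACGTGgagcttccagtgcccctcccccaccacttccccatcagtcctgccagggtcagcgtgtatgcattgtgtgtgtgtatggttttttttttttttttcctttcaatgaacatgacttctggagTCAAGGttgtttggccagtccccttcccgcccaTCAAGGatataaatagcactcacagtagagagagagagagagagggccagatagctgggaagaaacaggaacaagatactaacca
Fabp6: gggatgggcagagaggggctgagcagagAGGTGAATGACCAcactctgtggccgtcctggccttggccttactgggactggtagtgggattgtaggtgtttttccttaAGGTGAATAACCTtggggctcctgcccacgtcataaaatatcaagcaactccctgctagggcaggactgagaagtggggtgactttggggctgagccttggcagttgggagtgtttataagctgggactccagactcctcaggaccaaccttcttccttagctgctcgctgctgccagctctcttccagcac
Slc51a: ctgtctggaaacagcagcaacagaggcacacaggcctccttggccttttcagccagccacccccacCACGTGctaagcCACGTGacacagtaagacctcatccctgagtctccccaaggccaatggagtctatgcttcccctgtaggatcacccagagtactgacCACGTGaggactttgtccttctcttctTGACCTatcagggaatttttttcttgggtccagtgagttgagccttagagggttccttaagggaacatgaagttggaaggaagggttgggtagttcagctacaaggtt

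Fxr with its partner Rxr binds an inverted repeat of the motif AGGTCA with 1 base between the repeats, AGGTCANTGACCT. This exact motif was in none of the 7 windows and in 0.00913% of all 32851 windows of this length. The Fabp6 window held 2 stretches that match at least 10 of its 12 fixed letters, AGGTGAATGACCA beginning 222 bases and AGGTGAATAACCT beginning 142 bases before the start. A match that close was in 1.14% of all windows and in none of the other 6. Bases beyond the windows were not searched, so this absence holds for the windows only. The Nr1h4 window (chr10:89506609-89506908, minus strand) lies wholly inside the gene as annotated in GENCODE and not at its outer end. The single motif AGGTCA itself, searched on both strands and contained in the repeat, was in the windows of Nr1h4, Slc51a, Slc51b and Abcc2 and in 16.3% of all windows. The letters TCAAGG, the core bound by the receptor Lrh1, stood 68 and 35 bases before the start of Nr0b2. They also stood once in the Abcc2 window, on the opposite strand, 21 bases after the start. These letters were added to the search after the Nr0b2 window had been read. Counted on both strands, they were in 14.4% of all windows at least once and in 1.32% at least 2 times. The threshold of 2 is the count of the Nr0b2 window itself. The palindrome CACGTG, which dimers of Myc and Max bind and other factors bind too, occurred once in the Nr0b2 window and 3 times in that of Slc51a. It was in 7.15% of all windows at least once and in 0.0883% at least 3 times. That threshold of 3 is the count of the Slc51a window itself, which was singled out for it. A match describes letters and not a bound site.

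Fgf15 (ENSMUSG00000031073.6, chromosome 7, 144896531 to 144900953, plus strand, GRCm38) encodes the hormone that ileal enterocytes send to the liver. Its level was 143, 76.5 and 133 CPM (read counts scaled to library size, with TMM factors) in control libraries 1 to 3 and 306, 588 and 464 CPM in Myc-deleted libraries 1 to 3. The lowest Myc-deleted library lay above the highest control, and Myc-deleted library 2 was the highest. Groups that do not overlap were found for 27.8% of all tested genes, and for 5 of the 9 described here. The mean went from 117 ± 35.8 to 453 ± 141 CPM (SD, n = 3), a log2 fold change of 1.95 ± 0.26 (SE, adjusted p = 0.00236). The fold lay between 2.57 and 5.80 by its 95% interval. It passed in each of the 13 alternative analyses (log2 fold change 1.70 to 2.17). The gene overlaps the exons of 2 antisense genes, Gm26793 and Gm39119, which held between 3 and 45 counts per library against 885 to 6328 for Fgf15. Whether the counting used the strand is not given in the sources used here.

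Nr0b2 (ENSMUSG00000037583.2, chromosome 4, 133553376 to 133556536, plus strand) encodes Shp, a receptor without a DNA-binding domain that represses other nuclear receptors. It was the lowest of the 9 genes, with 10, 17 and 11 counts in controls and 56, 104 and 78 in the Myc-deleted libraries. Its level was 0.994, 1.47 and 1.12 CPM in control libraries 1 to 3 and 5.12, 9.66 and 7.20 CPM in Myc-deleted libraries 1 to 3. The groups did not overlap, and library 2 was the highest in both. The log2 fold change was 2.59 ± 0.31 (SE, adjusted p = 0.00149), with a 95% interval of 3.75-fold to 9.69-fold. It passed in each of the 13 alternatives (2.34 to 2.79). In the Myc-deleted libraries Fgf15 and Nr0b2 stood in the same order, with library 1 lowest, library 3 between and library 2 highest. In the controls they did not, since library 2 held the least Fgf15 and the most Nr0b2.

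**Figure D2:**
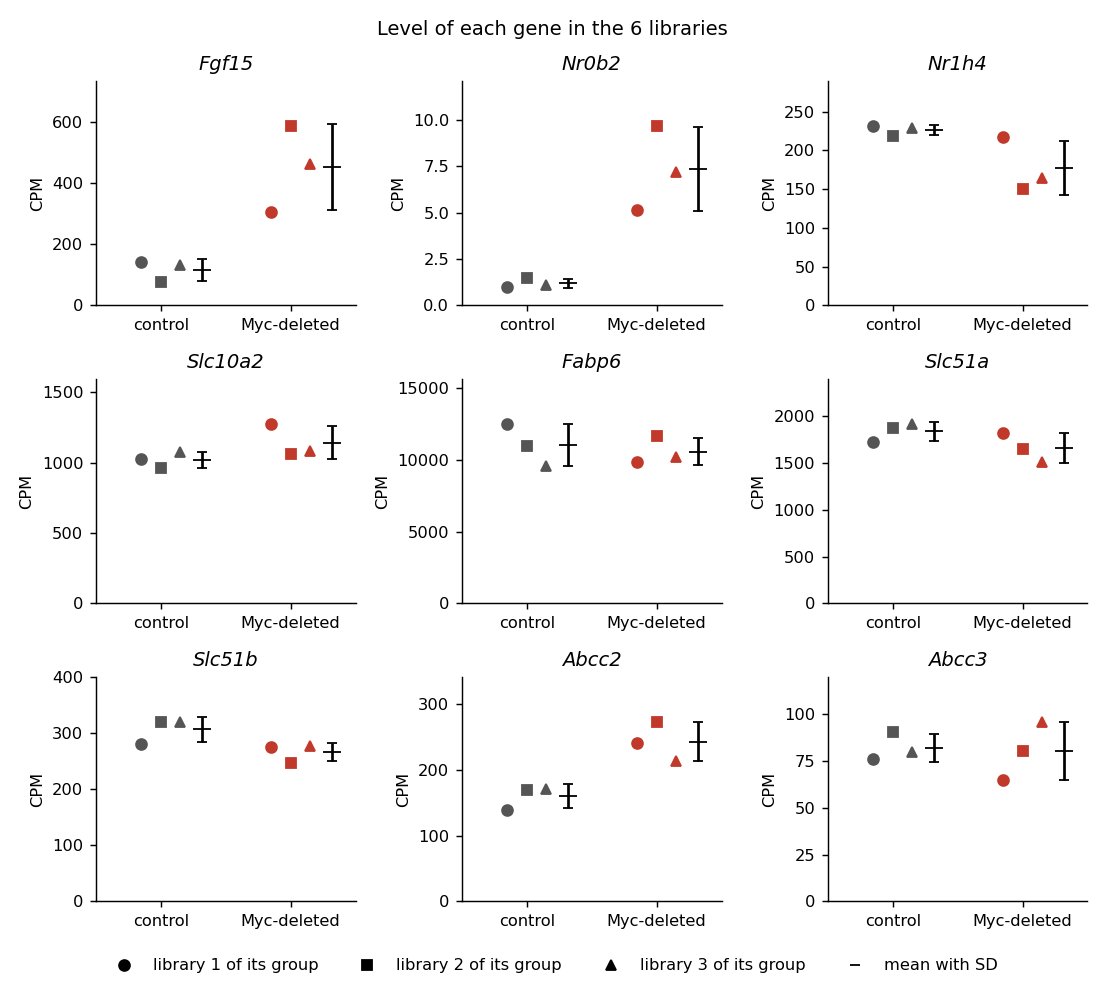
Level of each of the 9 genes in CPM (y axis, from 0) in the 3 control (grey) and 3 Myc-deleted (red) libraries, with library numbers as symbols and the group mean with its SD beside them. Fgf15, Nr0b2 and Abcc2 show Myc-deleted libraries above every control, while Nr1h4 and Slc51b show them below every control by smaller margins.

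Nr1h4 (ENSMUSG00000047638.15, chromosome 10, 89454234 to 89533585, minus strand) encodes Fxr itself. Its level was 231, 218 and 228 CPM in control libraries 1 to 3 and 217, 150 and 165 CPM in Myc-deleted libraries 1 to 3. All Myc-deleted libraries lay below the controls, library 1 by a narrow margin. The log2 fold change was -0.35 ± 0.12 (SE) and did not pass (adjusted p = 0.123 by the edgeR test). Its 95% interval ran from 0.647-fold to 0.949-fold. Without Myc-deleted library 1 it passed as lower (log2 fold change -0.52, adjusted p = 0.00630), and then 1 of the 9 genes fell. It did not pass in the other 12 alternatives (adjusted p = 0.0601 to 0.319). The SD of Nr1h4 was 3.02% of the mean in controls and 19.9% in the Myc-deleted libraries.

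Slc10a2 (ENSMUSG00000023073.2, chromosome 8, 5083219 to 5105351, minus strand) encodes Asbt, the sodium-dependent carrier that takes bile acids up from the gut lumen. Its level was 1026, 961 and 1075 CPM in control libraries 1 to 3 and 1276, 1063 and 1083 CPM in Myc-deleted libraries 1 to 3. Myc-deleted library 1 was the highest of all, and the other 2 lay within or just above the range of the controls. The log2 fold change was 0.16 ± 0.10 (SE, adjusted p = 0.372), and the 95% interval reached from 0.963-fold to 1.30-fold. Without Myc-deleted library 1 it was 0.07, and it passed in no alternative.

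Fabp6 (ENSMUSG00000020405.4, chromosome 11, 43596049 to 43601540, minus strand) encodes the ileal bile acid binding protein of the cytosol. Its level was 12490, 10955 and 9567 CPM in control libraries 1 to 3 and 9834, 11636 and 10208 CPM in Myc-deleted libraries 1 to 3. The groups overlapped over most of their range. The log2 fold change was -0.06 ± 0.14 (SE, adjusted p = 0.846), and its sign turned to 0.04 without control library 1. The 95% interval ran from 0.778-fold to 1.18-fold.

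Slc51a (ENSMUSG00000035699.7, chromosome 16, 32474504 to 32487879, minus strand) and Slc51b (ENSMUSG00000053862.5, chromosome 9, 65412714 to 65422955, minus strand) encode the 2 subunits of Ost, which exports bile acids across the basolateral membrane and works only as a pair. Slc51a measured 1729, 1872 and 1920 CPM in control libraries 1 to 3 and 1823, 1650 and 1510 CPM in Myc-deleted libraries 1 to 3. Slc51b measured 282, 321 and 320 CPM in controls and 275, 247 and 277 CPM in the Myc-deleted libraries. The groups overlapped for Slc51a and did not for Slc51b, where control library 1 and Myc-deleted library 3 were close to each other. The log2 fold changes were -0.15 ± 0.10 for Slc51a (SE, adjusted p = 0.425) and -0.21 ± 0.08 for Slc51b (adjusted p = 0.181), and neither passed in any alternative. The 95% intervals were 0.776-fold to 1.05-fold for Slc51a and 0.761-fold to 0.987-fold for Slc51b. Both genes overlap exons on the opposite strand, Slc51a those of Pcyt1a (1330 to 1976 counts per library, against 16363 to 21651 for Slc51a) and Slc51b those of Rasl12 (68.0 to 175 counts, against 2663 to 3708).

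Abcc2 (ENSMUSG00000025194.5, chromosome 19, 43782192 to 43840740, plus strand) encodes Mrp2, an apical pump for conjugated organic anions, bile acid conjugates among them. Its level was 140, 170 and 171 CPM in control libraries 1 to 3 and 241, 273 and 214 CPM in Myc-deleted libraries 1 to 3. The groups did not overlap. The log2 fold change was 0.60 ± 0.11 (SE, adjusted p = 0.00986), with a 95% interval of 1.28-fold to 1.80-fold. It passed in each of the 13 alternatives, with adjusted p-values up to 0.0401. Abcc3 (ENSMUSG00000020865.16, chromosome 11, 94343295 to 94392997, minus strand) encodes Mrp3, a related pump of the basolateral membrane. It measured 76.3, 90.7 and 79.9 CPM in controls and 65.0, 80.5 and 96.0 CPM in the Myc-deleted libraries, which held both the lowest and the highest value. Its log2 fold change was -0.03 ± 0.13 (SE, adjusted p = 0.916; 95% interval 0.796-fold to 1.20-fold) and turned positive without control library 2 (0.03) or Myc-deleted library 1 (0.10).

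The difference between members was tested as the log2 ratio of 2 genes within a library, which does not depend on scaling between libraries. For 3 against 3 libraries the smallest two-sided exact permutation p is 0.1, so no ratio could pass 0.05, and the 4 ratios were adjusted together. Fgf15 over Fabp6 was -6.59 ± 0.510 in controls and -4.59 ± 0.368 in the Myc-deleted libraries (SD, n = 3, exact p = 0.1, adjusted p = 0.133), a difference of 2.00 on the log2 scale. Nr0b2 over Nr1h4, the repressor against the receptor, went from -7.36 ± 0.279 to -4.59 ± 0.719 (exact p = 0.1, adjusted p = 0.133). Abcc2 over Abcc3, the apical against the basolateral pump, went from 0.957 ± 0.124 to 1.60 ± 0.393 (exact p = 0.1, adjusted p = 0.133). In these 3 ratios the groups did not overlap. Each sets a gene called higher above over a gene that did not pass, so the separation restates those calls. Slc51a over Slc51b, the 2 subunits of 1 carrier, was 2.58 ± 0.0361 and 2.64 ± 0.166 (exact p = 0.6, adjusted p = 0.6).

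**Figure D3:**
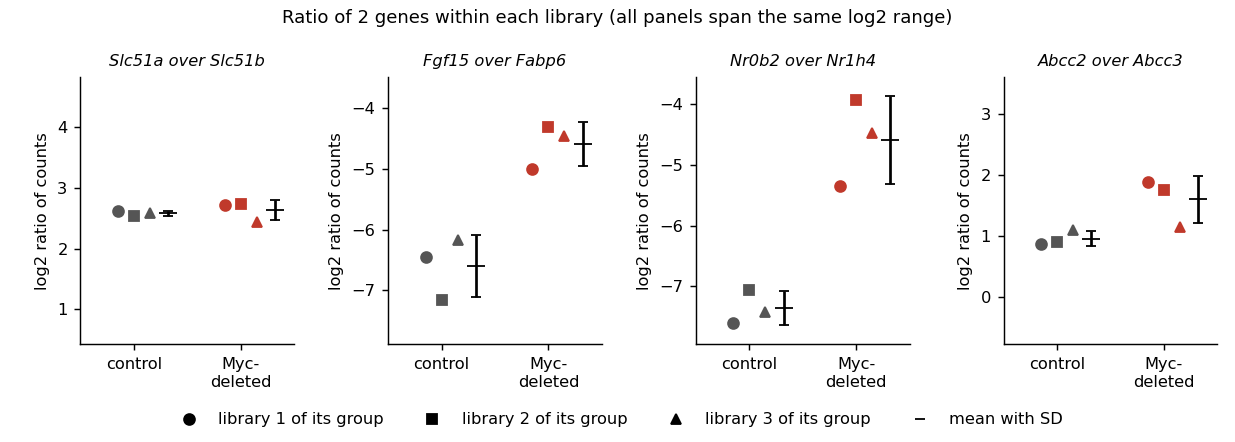
Log2 ratio of the counts of 2 genes within each library (y axis, each panel spanning the same log2 range) for controls (grey) and Myc-deleted libraries (red), with the group mean and SD. The Fgf15 over Fabp6 ratio stood at -6.59 in controls and -4.59 in the Myc-deleted libraries, whereas Slc51a over Slc51b stood at 2.58 and 2.64.

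Per kilobase of annotated exon, the controls held the 9 genes in the order Fabp6 (22973 CPM per kilobase), Slc51a (575), Slc51b (434), Slc10a2 (246), Nr1h4 (98.2), Fgf15 (38.4), Abcc2 (18.8), Abcc3 (14.4) and Nr0b2 (1.06). No neighbours in this order overlapped between libraries. In the Myc-deleted libraries the order was the same except that Fgf15 (148 CPM per kilobase) stood above Nr1h4 (76.9), again with no overlap between neighbours. The exon lengths cover all annotated transcripts, so these levels are approximate.

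Genes around the axis were described from lists set up with earlier results of these data known. Beside the counts given for each list, 4.22% of all tested genes rose and 3.73% fell. Among 26 nuclear receptors, cofactors and other regulators, 24 were tested, 3 rose and 2 fell, and the median log2 fold change was -0.02, with a range of -0.09 (without control library 2) to 0.018 when 1 library was dropped. It was positive without control library 3 or Myc-deleted library 3. Fgfr4, the receptor that binds Fgf15, rose from 4.70 ± 1.09 to 10.2 ± 0.506 CPM (2.18-fold, adjusted p = 0.00592). Its coreceptor Klb, which the hormone needs for binding, held at most 3 counts in any library and was not tested. Gata4, a factor of the proximal small intestine that keeps ileal genes such as Slc10a2 off there, rose 2.82-fold (adjusted p = 0.00973). Gata6, a related factor named after its values were seen, rose 1.26-fold (adjusted p = 0.0425). It did not pass with DESeq2, upper-quartile scaling, the replicate block or any library left out other than control library 3 (adjusted p = 0.0546 to 0.188). The vitamin D receptor Vdr, which also senses the bile acid lithocholic acid, fell by 0.46 on the log2 scale (adjusted p = 0.0118). The glucocorticoid receptor Nr3c1 fell by 0.33 (adjusted p = 0.0272), but passed in no run without a control library or without Myc-deleted library 2 or 3 (adjusted p = 0.0606 to 0.0949). Upper-quartile scaling put 4 of the list lower.

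Of 14 other described Fxr targets, 11 were tested, 2 rose and 1 fell, with a median log2 fold change of 0.11. Dropping control library 1 or 3 raised that median to 0.23 or 0.17, and dropping Myc-deleted library 1 or 3 gave 0.067 or 0.19. Apoc2, an activator of lipoprotein lipase, measured 82.8, 59.8 and 61.6 CPM in controls and 102, 270 and 237 CPM in Myc-deleted libraries 1 to 3 (adjusted p = 0.0110). As with Fgf15, Myc-deleted library 1 was the lowest of its group and library 2 the highest. Smpd3, a neutral sphingomyelinase, rose 1.29-fold (adjusted p = 0.0200), and Baat, which conjugates bile acids to amino acids, fell by 0.96 on the log2 scale (adjusted p = 0.0148). Without control library 2 none of the 3 passed (adjusted p = 0.0670 for Apoc2, 0.117 for Smpd3 and 0.0730 for Baat). Smpd3 was also lost with control library 1 or Myc-deleted library 2 or 3 left out (adjusted p = 0.0638 to 0.0768). Abcb11, the bile salt pump of hepatocytes, had 1 to 4 counts per library, too few for the test.

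Of 16 other transporters of bile acids, organic anions and sterols, 10 were tested, 1 rose and 2 fell, with a median of 0.30 (0.20 without Myc-deleted library 1). Slco3a1, an organic anion transporter, rose 1.76-fold (adjusted p = 0.00454). Abcg2, an apical pump, fell from 358 ± 29.2 to 252 ± 6.55 CPM (adjusted p = 0.00503), and Slco2b1 fell by 0.55 on the log2 scale (adjusted p = 0.0260). Slco2b1 did not pass when library 2 or 3 of either group was left out (adjusted p = 0.0670 to 0.111). DESeq2 put 3 of the list higher, and 2 were higher without a filter on low counts, with the replicate block or without Myc-deleted library 1 or 3. The hepatic uptake carrier Slc10a1 held 0 or 1 count in every library.

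Of 17 enzymes of bile acid synthesis and conjugation, 8 were tested, 1 rose and 1 fell. Acox2, a peroxisomal oxidase that shortens the side chain of bile acid precursors, went from 17.2 ± 0.676 to 42.5 ± 7.48 CPM (2.47-fold, adjusted p = 0.000704), and Baat was the faller. Fallers numbered 0 without control library 2, 2 with upper-quartile scaling or without Myc-deleted library 1, and 3 without a filter on low counts or with the replicate block. The median was -0.27, and became -0.49 or -0.12 on dropping Myc-deleted library 1 or 3 and -0.17 on dropping control library 2. Cyp7a1, the hepatic enzyme that Fgf15 represses, was at 0 counts in all 6 libraries, which allows up to 0.259 to 0.306 CPM (3 counts per library). Of 8 targets of the xenobiotic and vitamin D receptors, 6 were tested. S100g, a calcium-binding protein (2.19-fold, adjusted p = 0.00986), and Cyp3a13 (1.36-fold, adjusted p = 0.0207) rose, and Cyp3a25 fell by 1.46 on the log2 scale (adjusted p = 0.00200). Both risers were lost without control library 2 (adjusted p = 0.0586 and 0.101), and Cyp3a13 also with control library 1 or Myc-deleted library 2 or 3 left out (adjusted p = 0.0547 to 0.0752).

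**Figure D4:**
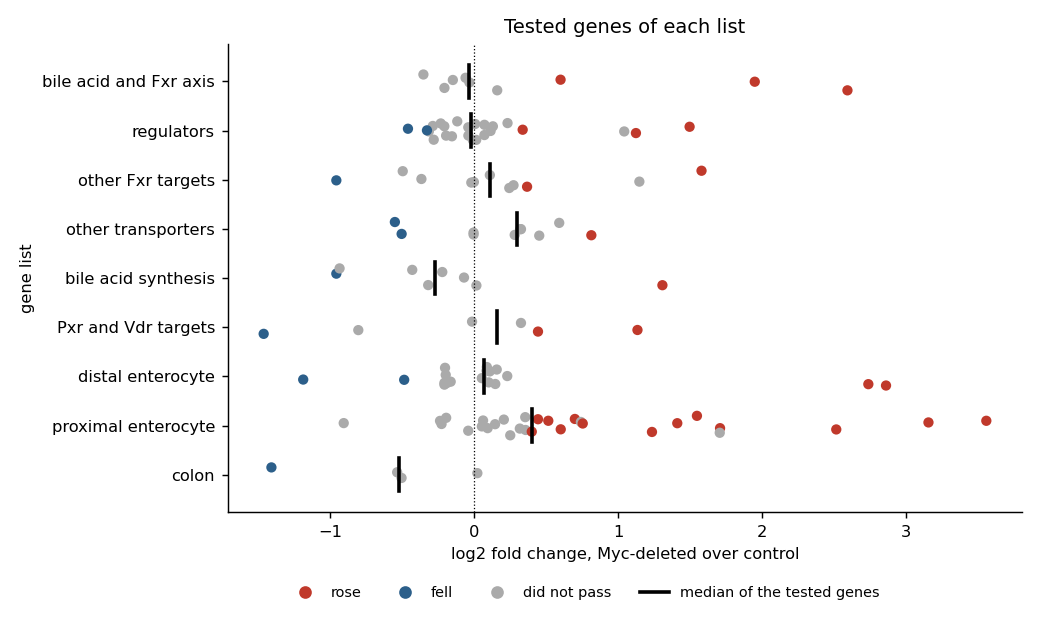
Log2 fold change, Myc-deleted over control (x axis), of each tested gene in the 9 described here and in 8 related lists (y axis), with genes that rose in red, fell in blue or did not pass in grey, and the median as a bar. The proximal enterocyte list has 13 of 29 tested genes in red, against 3 of 9 in the bile acid and Fxr list. Over all tested genes 4.22% rose. The lists were set up with earlier results of these data known.

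Lists of genes typical of gut regions were set beside these values. Of 30 enterocyte genes of the proximal small intestine 29 were tested, and 13 rose and 0 fell, with a median log2 fold change of 0.40 (7 risers without control library 2). Over all tested genes 4.22% rose. Among the 13 risers is Cyp3a13, which was also counted above with the targets of the xenobiotic and vitamin D receptors. At an unadjusted p under 0.05, 18 of the proximal list were higher and 1 lower by edgeR. Over all 12720 tested genes 1492 were higher and 1329 lower at that threshold. After adjustment, 1 of the proximal list was lower with DESeq2, upper-quartile scaling or no filter on low counts. The same held without control library 1 or Myc-deleted library 1. The 4 with the lowest p were Slc2a2, the glucose transporter Glut2 (11.8-fold, adjusted p = 0.000129), Ms4a10 (2.92-fold, adjusted p = 0.000129), Ckb, a creatine kinase (5.71-fold), and Hsd17b6 (3.26-fold). By fold the order differed, with Lct, the lactase gene (8.90-fold, adjusted p = 0.00915), second to Slc2a2; Lct was named after its values were seen. The summed level of this list was 9817 to 12530 CPM in controls and 12126 to 15450 CPM in the Myc-deleted libraries. Of 18 other genes of distal enterocytes, 2 rose and 2 fell, with a median of 0.07 and overlapping sums of 17966 to 19008 and 15764 to 20914 CPM. Dropping control library 1, 2 or 3 gave a median of 0.018, 0.044 or 0.11, and it turned negative on dropping Myc-deleted library 1 (-0.043) or 2 (-0.0097). The risers were Fam151a and Plb1, a brush border phospholipase, and the fallers Ocm and Clec2h. Clec2h was lost in the 5 runs without a control library or without Myc-deleted library 2 or 3 (adjusted p = 0.0670 to 0.112). Of 8 colon genes 4 were tested and Car4, a carbonic anhydrase, fell by 1.41 on the log2 scale. Over all tested genes 3.73% fell. Aqp8, Hoxb13 and Hoxd13 were at 0 in all libraries. Car1, another carbonic anhydrase, was not tested and went the other way. It held 0, 5 and 2 counts in control libraries 1 to 3 and 9, 21 and 30 counts in Myc-deleted libraries 1 to 3. Without a filter on low counts 1 gene of the colon list was higher. The part of a regional shift in the rise of Fgf15 and Nr0b2 was not tested.

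Markers of the epithelium and of other cells check the label. Of 11 enterocyte markers 3 rose, against 4.22% of all tested genes. Their sum was 42823 to 50181 CPM in controls and 52994 to 57089 CPM in the Myc-deleted libraries. Hepatocyte markers summed to 93.4 to 102 and 83.0 to 93.2 CPM, of which 2 of 5 tested fell, against 3.73% of all tested genes. The other 3 had positive log2 fold changes, and the median of the 5 was 0.25. The hepatocyte marker with the highest level was Serpina1b (mean 58.0 CPM in controls and 71.5 CPM in the Myc-deleted libraries). The fallers were Tat (32.2 and 11.7 CPM) and Alb, the albumin gene (2.61 and 0.582 CPM). Stromal and muscle markers summed to 72.0 to 144 CPM, highest in control library 2, and 72.7 to 98.1 CPM, and immune markers to 389 to 409 and 372 to 431 CPM. No marker of these last lists passed by edgeR, while 2 in each had an unadjusted p under 0.05, all lower. At that threshold 1329 of all 12720 tested genes were lower. Pancreatic acinar markers held at most 0.432 CPM in sum. Their part in the results was not tested. Library totals were 9956938 to 11328693 counts. Myc, the targeted gene, stood at 5.86 to 6.05 CPM in controls. It measured 3.29, 4.36 and 5.81 CPM in Myc-deleted libraries 1 to 3 (log2 fold change -0.41, adjusted p = 0.318 by the edgeR test). Each of these lay below every control, library 3 by a narrow margin. Since Myc was not called lower, its level cannot verify the genotype of any Myc-deleted library. Without Myc-deleted library 3, Fgf15, Nr0b2 and Abcc2 kept log2 fold changes of 1.92, 2.60 and 0.68.

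The genes with the pattern nearest to Fgf15 and to Nr0b2 were sought among 11220 genes whose mean log2 CPM was 1 or more. Nearness was the root mean square difference of centred log2 CPM over the 6 libraries. No such search was made for Abcc2. For Fgf15 the nearest genes were Arl14 (0.16), Npl (0.21), Gsta3 (0.25), Ces2b (0.25) and Ces1g (0.26). Arl14, a small GTPase gene, stood at 2.88, 1.47 and 2.15 CPM in controls and 5.03, 11.2 and 10.6 CPM in the Myc-deleted libraries. Like Fgf15, it was lowest in control library 2 and Myc-deleted library 1 within their groups. For Nr0b2 they were Fam151a (0.24), Ckb (0.25), Plk2 (0.30), Foxq1 (0.30) and Ephx1 (0.31). Fam151a stood at 7.45, 7.78 and 7.46 CPM in controls and 32.5, 80.9 and 51.7 CPM in the Myc-deleted libraries. All genes share the same libraries, so closeness of pattern is a description.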

How the data were processed

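The 6 bulk RNA libraries were made with a stranded mRNA kit, per the labels' protocols. The authors deposited expected counts per gene, not scaled between libraries. The submitters' processing notes name cutadapt, STAR, Picard, RSEM and the build mm10; their versions and the annotation are not given there or in the labels. After rounding, low genes were removed by filterByExpr (at least 10 counts, total of at least 15). edgeR 4.0.16 under R 4.3.3 then gave TMM factors and the quasi-likelihood F-test over every remaining gene, with Benjamini-Hochberg adjustment. Alternatives used DESeq2 1.42.0 and limma 3.58.1. The SE was taken as the size of the log2 fold change divided by the root of F, and log2 CPM used a prior count of 2. Symbols matched 99.1% of genes. The rule for named genes took the 9, Myc, up to 4 members past the threshold with the lowest p of each list, and the 5 nearest patterns of Fgf15 and Nr0b2. Outside that rule, and with their values seen, the text also names Gata6, Lct, Klb, Abcb11, Slc10a1, Cyp7a1, Car1, Aqp8, Hoxb13 and Hoxd13. The same holds for Npc1l1, Fos, Fabp1, Gpbar1, Serpina1b, Tat, Alb and genes overlapping the 9. Members and lists were chosen with earlier results of these data known. The labels do not say that libraries are separate mice, so p-values measure the spread between these samples. Replicate libraries differed by far more than counting noise (chi-square per degree of freedom 10.1 to 16.3). Floors cover counting error only. The procedure was tested on simulated data.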

Additional observations from a re-analysis of the deposited data

How the results depend on the processing

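Analyses were repeated in 13 ways: each of the 6 libraries dropped, a replicate block, no filter or a stricter one, limma voom or DESeq2 in place of edgeR, and scaling by RLE or by upper quartile. Fgf15, Nr0b2 and Abcc2 rose in all of them, so the count of the 9 genes that rose was 3 throughout. The count that fell was 0, and 1 without Myc-deleted library 1 (range 0 to 1 over the leave-one-out runs). Fabp6 ranged from -0.15 to 0.041 with 1 library left out, positive without control library 1, and Abcc3 from -0.18 to 0.10, positive without control library 2 (0.033) or Myc-deleted library 1. Leaving out 1 library gave 229 to 503 higher and 233 to 447 lower genes, against 537 and 474 with all 6, with fewest higher and fewest lower without control library 2. Upper-quartile scaling put 449 genes higher and 591 lower. With the replicate block 552 genes were higher and 428 lower, no call on the 9 genes changed, and Fgf15, Nr0b2 and Abcc2 had log2 fold changes of 1.94, 2.59 and 0.60. The labels state no pairing of the samples by number. Deviations of same-numbered libraries correlated weakly, at 0.026, 0.052 and 0.019 over 12720 genes, which cannot settle whether samples were paired. Each library did correlate best with its own number, a hint from the data and not the design. In the ratios, a prior count of 0.5 moved Nr0b2 over Nr1h4 from 2.77 to 2.91. The low counts of Nr0b2 in the controls, 10 to 17, limit the precision of its fold.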

Other observations

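Myc-deleted library 1 departed from the other Myc-deleted libraries in several genes, some of them of lipid and bile acid handling, all chosen after their values were seen. It held the least Fgf15 and Nr0b2 of its group and the most Slc10a2. Npl, one of the patterns nearest to Fgf15, stood at 9.52 CPM there against 14.4 and 14.6 CPM in the other two. The cholesterol uptake carrier Npc1l1 measured 1370 CPM in Myc-deleted library 1 and 1086 and 1023 CPM in libraries 2 and 3, against 905 to 1025 CPM in the controls. The immediate early gene Fos, part of the factor Ap1, measured 261 CPM there and 128 and 103 CPM in libraries 2 and 3, against 54.5 to 101 CPM in the controls. The liver-type fatty acid binding protein Fabp1 went the other way, at 30.5 CPM against 178 and 124 CPM, with 16.0 to 43.6 CPM in the controls. Neither Fos (adjusted p = 0.0863), Npc1l1 (0.190) nor Fabp1 (0.0918) passed by the edgeR test.

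Gpbar1, the membrane receptor for bile acids, held 0 counts in each control and 2, 4 and 5 counts in Myc-deleted libraries 1 to 3. It was too low to be tested.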
